A study of Mus musculus with 2 samples.

Results

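The 7 globin genes of this account, Hba-x, Hba-a1, Hba-a2, Hbb-y, Hbb-bh1, Hbb-bt and Hbb-bs, were taken by symbol from the 32285 genes of a single-cell RNA sequencing experiment on whole mouse embryos at embryonic day 9.5. The experiment compared 1 library of wild-type (Usb1+/+) cells with 1 library of Usb1-null (Usb1-/-) cells, and asked whether particular cell types depended on Usb1, the enzyme that trims the oligo(U) tail of U6 small nuclear RNA. The null embryos came from intercrosses of mice heterozygous for a germline CRISPR/Cas9 deletion, described as the region of exon 2 in the methods and as exons 1 and 2 elsewhere in the study, so the deletion was carried by every cell of the embryo and not only by the blood. How many embryos were pooled for a library was not stated in the sources used. All 7 genes had at least 1 UMI (unique molecular identifier, a tag that marks 1 captured transcript) in both libraries. With 1 library per genotype there was no replicate error and no test, and every interval below is a 95% interval for counting error only.

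Hemoglobin carries oxygen as a tetramer of alpha-type and beta-type globin chains around heme. The first red cells of the mouse embryo, the primitive erythroid cells, arise in the yolk sac, enter the circulation while still nucleated, and mature there in step with one another. Their globin genes sit in an alpha-type and a beta-type locus, in each of which the embryonic genes come first and the adult genes later. In primitive cells Hbb-bh1 is used early and is overtaken by Hbb-y, and Hba-x is joined and then overtaken by Hba-a1 and Hba-a2, while Hbb-bt and Hbb-bs belong mainly to the definitive red cells that the fetal liver makes afterwards.

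The alpha-type genes lie on the forward strand of chromosome 11 (GRCm38, Gencode M21), with Hba-x, the zeta chain of embryonic hemoglobin, at 32276400 to 32278116. Hba-a1 lies at 32283511 to 32284465 and Hba-a2 at 32296489 to 32297298, both coding for the adult alpha chain. The beta-type genes lie on the reverse strand of chromosome 7, so the first in transcriptional order has the highest coordinate. These are Hbb-y (103851749 to 103853216) and Hbb-bh1 (103841637 to 103843164), the embryonic chains, followed by the adult genes Hbb-bs (103826534 to 103828096) and Hbb-bt (103812524 to 103813996). Each gene has 3 exons.

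The adult genes of each locus are near copies. The coding sequences of Hba-a1 and Hba-a2 were identical at 425 of 426 bases, and 71.1% of the 90-base windows in the last 400 bases of the Hba-a1 transcript occurred unchanged in Hba-a2. For Hbb-bt and Hbb-bs the coding sequences were identical at 440 of 441 bases, and 48.6% of the windows were shared. Reads in shared windows cannot be assigned to 1 copy, so the single values of these 4 genes are uncertain and they are also given as pairs. Hbb-y and Hbb-bh1 were identical at 77.0% of aligned coding bases and shared no such window, and Hba-x shared none with Hba-a1 or Hba-a2.

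The upstream sequence of 1 alpha-type and 1 beta-type gene is shown. These were the members whose RefSeq upstream window, cut at the first exon in Gencode, held no exon base and stayed long enough to print. The letters come from RefSeq (GRCm38.p6), read 5′ to 3′ on the gene's strand and ending at the last base before the first exon in Gencode. Capitals mark CACCC, the core of the box bound by Klf1-type factors, and CCAAT. Hba-a2 is at chr11:32296342-32296488 and Hbb-y at chr7:103853217-103853357.
Hba-a2: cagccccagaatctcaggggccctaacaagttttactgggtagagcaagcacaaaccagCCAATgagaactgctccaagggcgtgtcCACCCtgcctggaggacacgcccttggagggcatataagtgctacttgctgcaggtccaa
Hbb-y: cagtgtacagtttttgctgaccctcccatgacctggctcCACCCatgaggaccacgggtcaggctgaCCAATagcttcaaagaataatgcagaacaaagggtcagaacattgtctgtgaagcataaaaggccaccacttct

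The CACCC motif, the CCAAT motif and GATAA, the core of a site for Gata1-type factors, were searched on both strands in the 150 bases before the RefSeq start of the 6 members with an entry, all but Hbb-bh1. CACCC was present in 6 of 6 (37.4% of 32851 mouse promoter windows of the same length), CCAAT in 5 of 6 (24.5% of windows) and GATAA in 1 of 6 (13.3%). Hba-x was the member with GATAA and without CCAAT. Hba-a1 and Hba-a2 shared a run of 147 of these 150 bases, while the longest run shared by Hbb-bs and Hbb-bt was 14 bases. A match describes the letters of these windows and no more.

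The wild-type library held 15162 cell barcodes and 21751961 UMIs, the Usb1-null library 13034 barcodes and 33775852 UMIs, and 61 barcodes occurred in both. After the filters of the study 15161 wild-type cells (median 1243 UMIs) and 13018 Usb1-null cells (median 2299.5 UMIs) remained, so the null library was deeper per cell. These counts come from applying the stated limits to the deposited barcodes, and the numbers of cells that the study says it used differ from them in both libraries. No barcode in either library had fewer than 500 UMIs. Xist was at 53276 UMIs in the wild-type and 26 in the Usb1-null library, and 4 Y-linked genes summed to 14 and 23463, so sex and genotype cannot be told apart. Usb1 was at 68 UMIs (3.13 CPM, UMIs per 1000000 UMIs of the cells summed) in the wild-type library and 47 (1.41 CPM) in the other, which does not check the genotype, since it was not examined whether the counted 3′ tags lie within the deleted part. The labels call the molecule nuclear RNA, while the study describes a suspension of single cells. Mitochondrial genes were a median of 0.309% and 0.104% of a cell's UMIs. Whether the globin values reflect whole-cell or nuclear RNA was not tested.

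Cells were clustered with all globin genes withheld, and 1 of 21 clusters was erythroid-like. All 20 erythroid markers listed for the naming, none of them a globin, were raised in it, including the membrane proteins Slc4a1 and Ank1 and the heme enzyme Alas2. White blood cell markers were near 0 there, with 4 of 9, the defining Ptprc among them, at 0 UMIs in both libraries, and their summed level was 21.0 CPM in wild-type and 38.4 in Usb1-null. Megakaryocyte markers summed to 102 and 195 CPM. This cluster held 587 wild-type cells, 3.87% of the library (3.57 to 4.19), and 181 Usb1-null cells, 1.39% (1.2 to 1.61). The wild-type erythroid-like cells were shallow, with a median of 832 UMIs against 1708 in Usb1-null, and their 5th percentile of 529 UMIs lay close to the lowest deposited value. Among cells with at least 1000 detected genes the cluster held 136 wild-type and 131 Usb1-null cells, which was 1.77% and 1.12% of such cells, so the size of the gap in shares moved with the depth filter. Scrublet, which calls droplets that look like mixtures of cells, called 127 of the wild-type (21.6%) and 18 of the Usb1-null (9.94%) erythroid-like cells doublets.

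Across all cells of a library, the embryonic and adult alpha-type genes and the embryonic beta-type genes were lower in the Usb1-null library. Hba-x was at 195 CPM in wild-type cells and at 54.5 in those of the Usb1-null library, Hba-a1 at 57.4 and 11.1, and Hba-a2 at 26.8 and 7.19. Hbb-y was at 450 and 75.8, and Hbb-bh1, the early embryonic chain, at 79.1 and 33.1 CPM. Hbb-bs was at 4.14 (3.33 to 5.09) and 2.43 (1.93 to 3.02), and Hbb-bt at 1.24 (0.819 to 1.81) and 0.330 (0.164 to 0.590). The ratio of Usb1-null to wild-type levels was lowest for Hbb-y at 0.169 (0.161 to 0.176), and for Hbb-bh1 it was 0.419 (0.388 to 0.452). A gene was called lower at a log2 ratio of -1 or less, with 1 CPM added to both levels. Of the 6 members with at least 100 UMIs, 5 were called lower (all but Hbb-bs), against 0.552% of the 15031 genes with as many UMIs, and none was called higher, against 1.45% of those genes. Summed over the 7 genes the log2 ratio was -2.13, and the median over all genes tested was -0.01. A library sum cannot tell fewer red cells from less globin RNA per red cell or fewer globin UMIs in other cells. With the wild-type share of each cluster applied to both libraries the summed log2 ratio was -1.06. That value is not a level per red cell, since the erythroid-like cells held only 63.3% of the globin UMIs in wild-type and 61.3% in Usb1-null. Outside them the level was 308 and 72.2 CPM.

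**Figure D1:**
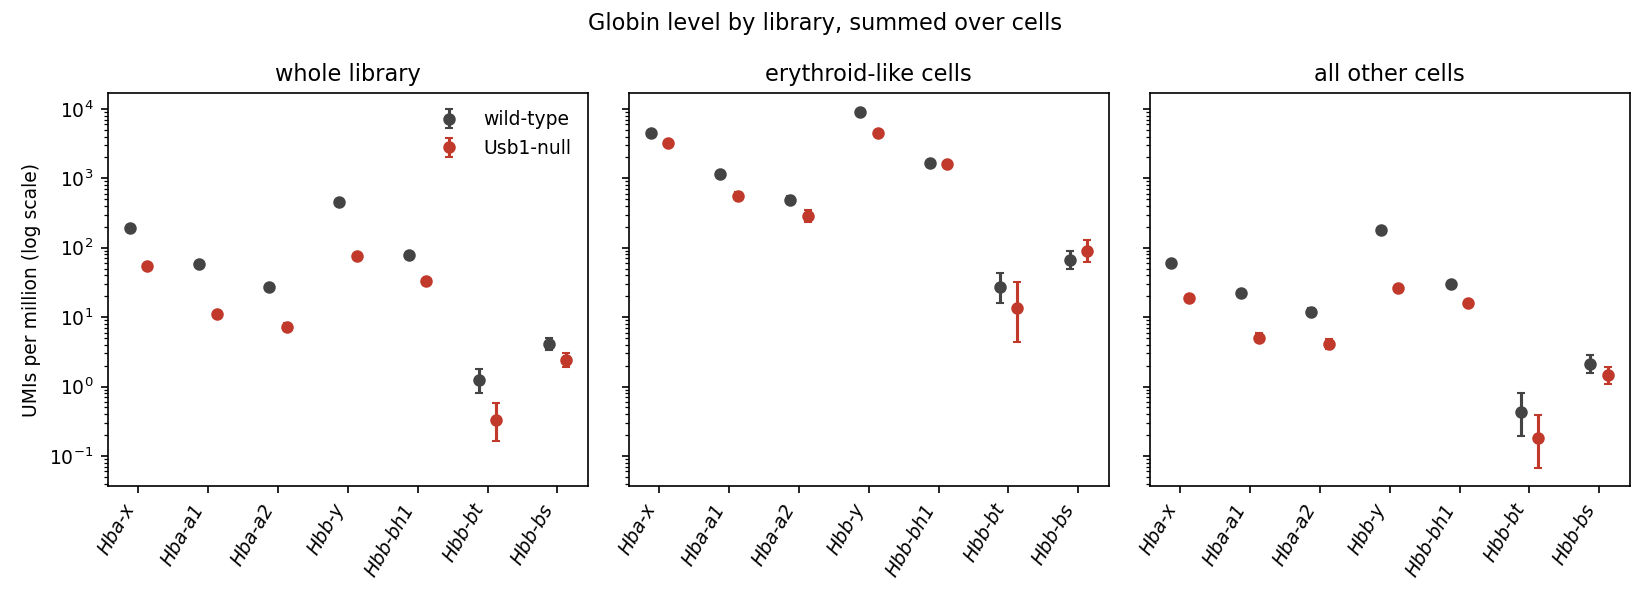
Level of each globin gene in CPM (vertical axis, log scale) in the whole library, the erythroid-like cells and all other cells. Points are 1 library each (dark, wild-type; red, Usb1-null) with 95% counting intervals. Hbb-y was the highest gene in every panel, and in the erythroid-like cells Hbb-bh1 was at 1641 and 1607 CPM in the 2 libraries.

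Inside the erythroid-like cells the order of the genes was the same in both libraries. Hbb-y led, followed by Hba-x, Hbb-bh1, Hba-a1, Hba-a2, Hbb-bs and Hbb-bt. Each UMI counts 1 captured 3′ end, so counts were compared between genes without dividing by length. Hbb-y made up 53.5% (52.5 to 54.4) of the 11197 wild-type globin UMIs and 43.8% (42.3 to 45.4) of the 3777 Usb1-null globin UMIs. Hba-x made up 26.4% and 31.5%, and Hbb-bh1 9.77% and 15.5%. Hba-a1 and Hba-a2 together with Hbb-bs and Hbb-bt, the adult-type genes, made up 10.4% and 9.16%. The embryonic chains thus dominated both libraries. No neighbours in this order had overlapping intervals in either library, the closest in Usb1-null being Hbb-bs (0.602 to 1.22%) and Hbb-bt (0.0430 to 0.309%). Without the richest Usb1-null cell, 2 steps of the order were no longer set apart in that library, with 1.09 (0.998 to 1.19) Hbb-y UMIs for each of Hba-x and 2 (0.623 to 7.46) Hbb-bs UMIs for each of Hbb-bt.

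Among the alpha-type genes, Hba-x had 2953 UMIs in the wild-type erythroid-like cells (4430 CPM) and 1189 in the Usb1-null ones (3261 CPM), a ratio of 0.736 (0.688 to 0.788). Hba-a1 had 772 UMIs (1158 CPM) and 203 (557 CPM), a ratio of 0.481 (0.410 to 0.562). Hba-a2 had 328 (492 CPM) and 105 (288 CPM), a ratio of 0.585 (0.465 to 0.731). All of these alpha-type genes were lower in CPM in Usb1-null. As UMIs per cell the ratio was 1.31 (1.22 to 1.4) for Hba-x, the opposite direction, 0.853 (0.727 to 0.997) for Hba-a1 and 1.04 (0.825 to 1.30) for Hba-a2. Without the richest cell of each library these per-cell ratios were 1.13 (1.05 to 1.21), 0.621 (0.514 to 0.745) and 0.858 (0.665 to 1.10). In CPM the interval of the Hba-a1 ratio lay below that of Hba-x, while that of Hba-a2 overlapped it.

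Among the beta-type genes, Hbb-y, the chain that dominates later primitive cells, had 5987 UMIs (8982 CPM) and 1656 (4542 CPM), a ratio of 0.506 (0.479 to 0.534). Hbb-bh1 had 1094 UMIs (1641 CPM) and 586 (1607 CPM), a ratio of 0.979 (0.884 to 1.08) whose interval included 1. This value turned on the cells and the scale: the ratio was 0.861 (0.772 to 0.958) without the richest cell of each library, 0.893 (0.799 to 0.998) without called doublets and 1.04 (0.926 to 1.16) without cells over 5% globin. As UMIs per cell it was 1.74 (1.57 to 1.92), and 1.52 (1.36 to 1.69) without the richest cells. The adult beta genes were rare: Hbb-bs had 45 and 33 UMIs (67.5 and 90.5 CPM) and Hbb-bt 18 and 5 (27.0 and 13.7 CPM), with ratio intervals of 0.829 to 2.15 and 0.147 to 1.42 that both included 1.

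One member, Hba-a1, was called lower in the erythroid-like cells at a log2 ratio of -1.06, where 5.69% of 8142 genes with at least 20 UMIs were called lower. Hbb-y lay just short of the limit at -0.98. The near copies Hba-a1 and Hba-a2 summed were at 1650 CPM in wild-type against 845 in Usb1-null, a log2 ratio of -0.97 that is not called. The summed pair was past the limit without the richest cell of each library (-1.35), without called doublets (-1.05) and, barely, without cells over 5% globin (-1.002). Hbb-bs and Hbb-bt summed were at 94.5 and 104 CPM, a ratio of 1.10 (0.717 to 1.68), and without the richest cells at 84.4 and 41.7 CPM, a ratio of 0.494 (0.259 to 0.885). Their ratio was 0.568 (0.295 to 1.03) without cells over 5% globin and 1.13 (0.713 to 1.79) without called doublets. Both sums were added after seeing the data. The median log2 ratio of the 7 members was -0.77, against -0.04 for all genes tested. The summed globins were at 16798 CPM in wild-type and 10358 in Usb1-null, a log2 ratio of -0.70. Expressed per cell the direction was the opposite, with 19.1 globin UMIs (18.7 to 19.4) in a wild-type cell and 20.9 (20.2 to 21.5) in a Usb1-null cell. The mean turned on few cells. Without the richest cell of each library it was 18.3 and 15.7 globin UMIs per cell, a ratio of 0.857 (0.822 to 0.893). Without cells over 5% globin, 572 wild-type cells held 8695 globin UMIs and 180 Usb1-null cells 2828, a slightly higher mean in Usb1-null. The medians over all erythroid-like cells were 13 and 14, so the per-cell direction depended on the cells used. With each cell reduced to 685 UMIs at random, which left out 179 of 587 wild-type and 3 of 181 Usb1-null cells as too shallow, the median was 10 globin UMIs in wild-type and 5 in Usb1-null.

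Single cells showed how evenly this was spread. The median erythroid-like cell held 13 globin UMIs in wild-type and 14 in Usb1-null, with middle ranges (25th to 75th percentile) of 9 to 18 and 10 to 20. As a share of the cell's own UMIs the medians were 1.56% (0.988 to 2.11) and 0.801% (0.574 to 1.08), so the middle ranges overlapped over a narrow stretch. Hbb-y was detected in 98.5% of wild-type and 95.6% of Usb1-null erythroid-like cells, and in 20.7% and 4.86% of neural progenitor-like cells (median 1129 and 2149 UMIs), a type that should lack it. Hbb-bh1 was detected in 71.0% and 85.6% of erythroid-like cells and in 3.8% and 3.03% of neural progenitor-like cells. After thinning to 685 UMIs the shares of erythroid-like cells with Hbb-bh1 were 59.6% and 60.1%, and those with Hbb-y 94.1% and 79.8%. Both Hbb-y and Hbb-bh1 were found in 70.0% of wild-type and 83.4% of Usb1-null erythroid-like cells. Of the 42 wild-type and 14 Usb1-null cells with a UMI of Hbb-bs or Hbb-bt, 0 lacked both embryonic beta genes, which allows up to 0.511% and 1.66% of the erythroid-like cells (3 cells of the total; the upper Clopper-Pearson limits are 0.626% and 2.02%). This limit is on cells in which such UMIs were detected and does not bound cells whose adult beta RNA was missed. Since Hbb-y alone was detected in 98.5% and 95.6% of all erythroid-like cells, a count near 0 was likely among any 42 and 14 of them. The 0 therefore shows nothing particular to the cells with adult beta UMIs.

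**Figure D2:**
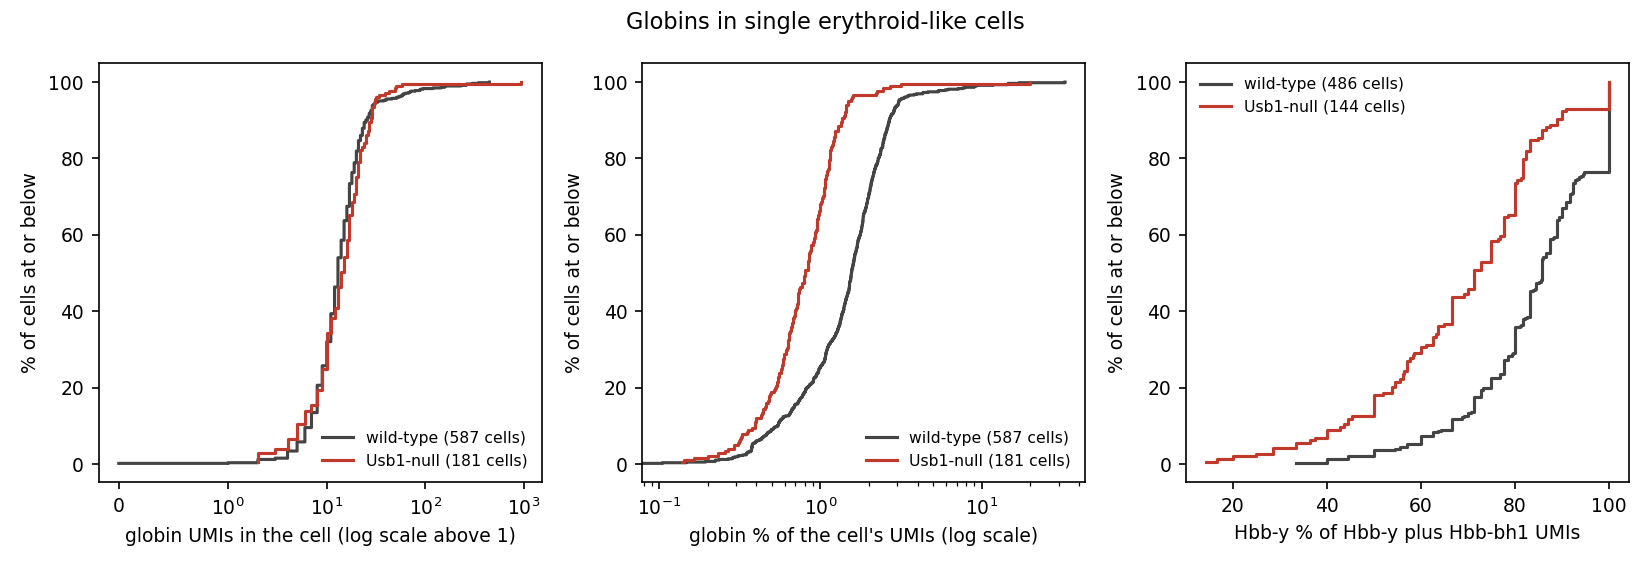
Cumulative share of erythroid-like cells (vertical axis, % of cells) by globin UMIs in the cell, by globin % of the cell's UMIs and by the Hbb-y % of Hbb-y plus Hbb-bh1 UMIs in cells with at least 5 of these. The lines for the 2 libraries run together for globin UMIs (medians 13 and 14) and lie apart for the other measures, with a median Hbb-y share of 85.7% over 486 wild-type cells and of 71.4% over 144 cells of the Usb1-null library.

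A small number of cells carried a large part of the signal. In wild-type, 15 erythroid-like cells had more than 5% globin UMIs and held 22.3% of the globin UMIs, with a highest share of 32.8% (300 of 914 UMIs). In Usb1-null a single cell did so: it held 949 globin UMIs of 4778, which was 25.1% of all globin UMIs of the erythroid-like cells, among them 565 of Hbb-y and 23 of the 33 of Hbb-bs. The next Usb1-null cell stood at 3.14%. The wild-type cell with the most globin UMIs held 449 of 3079, which was 4.01% of the globin UMIs of the wild-type erythroid-like cells. Results for the erythroid-like cells are therefore also given without the richest cell of each library, a comparison chosen after seeing the data. Without it the Usb1-null levels were 3032 CPM for Hbb-y, 2784 for Hba-x, 386 for Hba-a1, 228 for Hba-a2, 1387 for Hbb-bh1 and 27.8 for Hbb-bs. The wild-type levels were 8584, 4353, 1099, 469, 1611 and 57.3 in the same order. The ratios were then 0.353 (0.331 to 0.377) for Hbb-y and 0.352 (0.291 to 0.422) for Hba-a1, and the summed log2 ratio was -1.04. Then 4 of 7 members were called lower (Hba-a1, Hba-a2, Hbb-y and Hbb-bs), with 5.82% of all genes.

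The balance within the family, computed as shares of its own UMIs, also differed between the libraries. Of the embryonic beta-type UMIs, Hbb-y made up 84.6% (83.7 to 85.4) in wild-type and 73.9% (72.0 to 75.7) in Usb1-null erythroid-like cells, a difference of -10.7 percentage points (-12.7 to -8.68). In ratio, there were 5.47 Hbb-y UMIs for each Hbb-bh1 UMI in wild-type and 2.83 in Usb1-null. Without the richest cells the Hbb-y shares were 84.2% and 68.6%, and without called doublets 84.6% and 73.9%. The median over single cells with at least 5 such UMIs was 85.7% for wild-type and 71.4% in Usb1-null.

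Among the alpha-type genes, the balance between embryonic and adult members differed between the libraries. Hba-a1 and Hba-a2 made up 27.1% (25.8 to 28.5) of alpha-type UMIs in wild-type and 20.6% (18.6 to 22.7) in Usb1-null, a difference of -6.57 points (-9.02 to -4.03), so Hba-x held a larger part in Usb1-null. The difference was -11.4 points among cells with at least 1000 genes and -3.10 as a mean over cells. The balance of the near copies had overlapping intervals, with 2.35 (2.07 to 2.69) Hba-a1 UMIs for each of Hba-a2 in wild-type and 1.93 (1.52 to 2.47) in Usb1-null. Alpha-type genes together made up 36.2% (35.3 to 37.1) of globin UMIs in wild-type and 39.6% (38.1 to 41.2) in Usb1-null, so beta-type UMIs outnumbered alpha-type UMIs in both. That difference of 3.44 points was 6.70 without the richest cell of each library, 2.36 (0.419 to 4.31) without called doublets and 2.96 (-0.203 to 6.17) with thinned cells, where the interval included 0.

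For the adult beta genes the difference between the libraries rested on 1 cell. Hbb-bs and Hbb-bt made up 0.882% (0.678 to 1.13) of beta-type UMIs in wild-type and 1.67% (1.18 to 2.28) in Usb1-null erythroid-like cells, a difference of 0.785 points (0.242 to 1.43). Without the richest cell of each library the shares were 0.821% (0.621 to 1.06) and 0.935% (0.524 to 1.54), a difference of 0.113 points (-0.364 to 0.748).

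**Figure D3:**
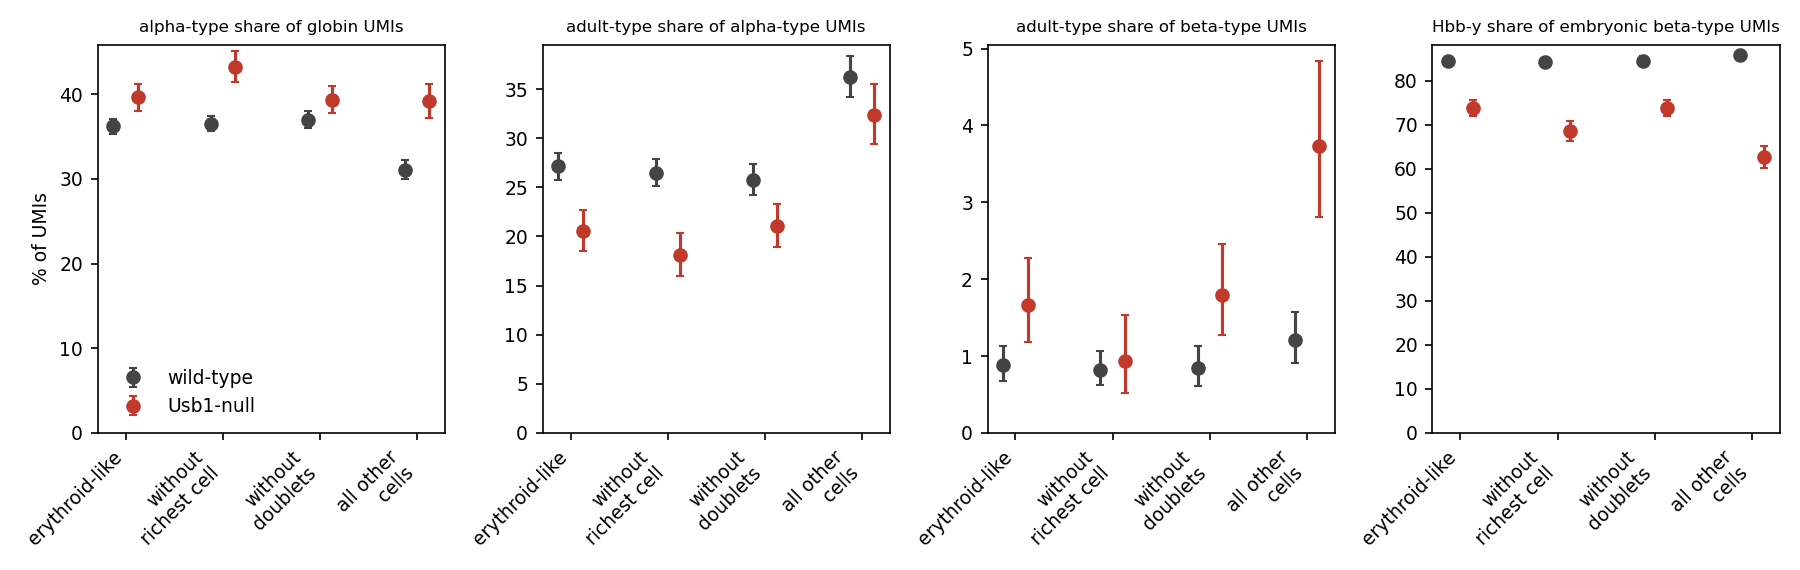
Shares within the globin family (vertical axis, % of UMIs) in the erythroid-like cells, in the same cells without the richest cell or without called doublets, and in all other cells. Points are 1 library each with 95% counting intervals. The Hbb-y share was lower in Usb1-null in each of the 4 sets of cells, from 84.2 to 85.9% in wild-type against 62.7 to 73.9% in Usb1-null.

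The erythroid-like cells were clustered again without globin genes. This gave 11 subclusters, 9 of which held fewer than 30 cells each (161 cells together) and are not described. The largest, 296 wild-type and 149 Usb1-null cells led by Csf2rb2, Gclm, Runx1 and Bpgm, the enzyme of red cell 2,3-bisphosphoglycerate synthesis, had 6 and 5 called doublets. Its globin level was 20860 CPM in wild-type and 12456 in Usb1-null, and its Hbb-y share of embryonic beta UMIs was 84.1% (82.8 to 85.4) and 74.1% (72.1 to 76.0). The second, 139 and 23 cells led by Xylt1 and Scube1, had 116 and 13 called doublets and median depths of 1970 and 3877 UMIs. There the globin level was 12646 and 4584 CPM and the Hbb-y share 85.0% (83.5 to 86.3) and 72.7% (66.7 to 78.2). The order of the libraries in Hbb-y share was thus alike in both subclusters.

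The globin regulators were split in direction. Of 24 listed transcription factors and cofactors of globin genes, 19 had at least 20 UMIs in the erythroid-like cells, of which 9 were lower and 10 higher in Usb1-null, with a median log2 ratio of 0.03. None was called lower and 2 were called higher, where 2.75% of the 8142 genes tested in these cells were called higher and 5.69% lower. These were Lmo2 and Mta2, named after their values were seen. Of the 6 with the most UMIs, Ikzf1 was at 663 CPM in wild-type and 677 in Usb1-null. Chd4, the ATPase of the NuRD repressor complex, was at 374 and 521. Sox6, a repressor of embryonic Hbb-y, was at 246 and 148, a ratio of 0.602 (0.434 to 0.823). Nr2c2 was at 224 and 178, Zfpm1, the Gata1 cofactor, at 192 and 181, and Tal1 at 156 and 195. Klf1, the activator of adult beta-globin, had 26 and 15 UMIs, and Bcl11a, a repressor of embryonic globins, 2 and 0.

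The list for globin chaperones and heme synthesis holds 12 genes, mainly enzymes of the heme pathway, with mitochondrial carriers, the kinase Eif2ak1 and the alpha-globin chaperone Ahsp, which was not analysed here. Of 11 listed genes with at least 20 UMIs, 8 were lower and 3 higher, with a median log2 ratio of -0.15, and 1 was called lower (Urod, 66 and 14 UMIs), beside 5.69% of all genes. The mitochondrial iron importer Slc25a37 was at 1968 and 1933 CPM, Cpox at 623 and 559, and Fech, which inserts iron into protoporphyrin to form heme, at 350 and 442. The rate-limiting enzyme Alas2 was at 263 and 277, and Eif2ak1, the heme-sensing kinase, at 171 and 154. Of 19 tested genes of the erythroid marker list, 14 were lower and 5 higher, with a median log2 ratio of -0.18 and 1 called lower (Rhd), again beside 5.69%. All 20 genes of that list summed to 9671 and 8877 CPM, while the sums of the globins were 16798 and 10358. Of 8 tested genes that mark fetal and adult red cells, 5 were lower and 3 higher, with a median of -0.05 and none called: Slc2a1 was at 518 and 488, Car2 at 330 and 557, Gypc at 335 and 387, Blvrb at 341 and 274, Bpgm at 170 and 148, and Bcl2l1 at 153 and 151. Of the other globin family genes only Hbb-bh2, a neighbour of Hbb-bh1, reached 20 UMIs, at 21 in wild-type and 26 in Usb1-null, and it was called higher, as were 2.75% of all genes. Of 2 tested blood progenitor markers 1 was called lower (Mecom), beside the same 5.69%: Runx1 was at 94.5 and 178 and Mecom at 161 and 63.1 CPM. Of 2 tested megakaryocyte markers 1 was called higher (Itgb3, 26 and 32 UMIs), beside 2.75% of all genes. The 1 tested white blood cell marker, Cx3cr1 (9 and 11 UMIs), was also called higher.

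The genes whose level most resembled the summed globins over 38 sums of cells (each cluster in each library with at least 50 cells) were Mir142hg, Atpif1, Slc4a1, Prdx2 and Rpl28, out of 15024 genes with at least 100 UMIs. Their Pearson r of log2 levels was 0.884, 0.863, 0.852, 0.850 and 0.848. Sums of a library share its depth, and the erythroid-like cluster weighs heavily in these values. Mir142hg was at 990 CPM in wild-type and 1426 in Usb1-null erythroid-like cells and at most 30.4 in another cluster, while Rpl28, a ribosomal protein gene, reached 453 outside them and 503 and 362 within. Among the members, r with the family sum was 0.987 for Hba-x, 0.979 for Hbb-y, 0.957 for Hba-a1, 0.912 for Hba-a2, 0.804 for Hbb-bh1, 0.695 for Hbb-bs and 0.694 for Hbb-bt, each member being part of that sum.

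Globin UMIs were also found outside the erythroid-like cells, in 31.3% (30.6 to 32.1) of the other wild-type cells and 14.3% (13.7 to 14.9) of the other Usb1-null cells, although the latter were deeper. The erythroid-like cells held 63.3% of all globin UMIs in wild-type and 61.3% in Usb1-null. The level outside them was 308 CPM in wild-type and 72.2 in Usb1-null, a ratio of 0.235 (0.224 to 0.246). Within a library the erythroid-like cells exceeded the others 54.6-fold (53.0 to 56.3) in wild-type and 143-fold (136 to 151) in Usb1-null. The level was lower in Usb1-null in 21 of 21 clusters, and in 20 of them the interval of the ratio lay below 1. In the 18 other clusters with at least 50 cells per library the wild-type level ran from 232 to 658 CPM and the Usb1-null level from 35.3 to 324, and the share of cells with a globin UMI ran from 28.7 to 40.2% and from 9.24 to 43.5%.

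The genes kept the same order in these cells but not the same proportions. Hbb-y made up 58.5% of globin UMIs outside the erythroid-like cells in wild-type and 36.7% in Usb1-null. Of the embryonic beta UMIs it made up 85.9% (84.8 to 86.9) and 62.7% (60.1 to 65.3), compared with 84.6% and 73.9% inside, and with 84.2% and 68.6% inside without the richest cells. Hba-a1 and Hba-a2 made up a larger part of the alpha-type UMIs outside than inside, 36.2% (34.1 to 38.4) against 27.1% in wild-type and 32.4% (29.4 to 35.5) against 20.6% in Usb1-null. Adult beta genes made up 1.21% (0.909 to 1.57) of beta-type UMIs outside in wild-type and 3.73% (2.81 to 4.83) in Usb1-null, from 54 UMIs in each. The lower Hbb-y share in Usb1-null was therefore seen inside and outside the erythroid-like cells.

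**Figure D4:**
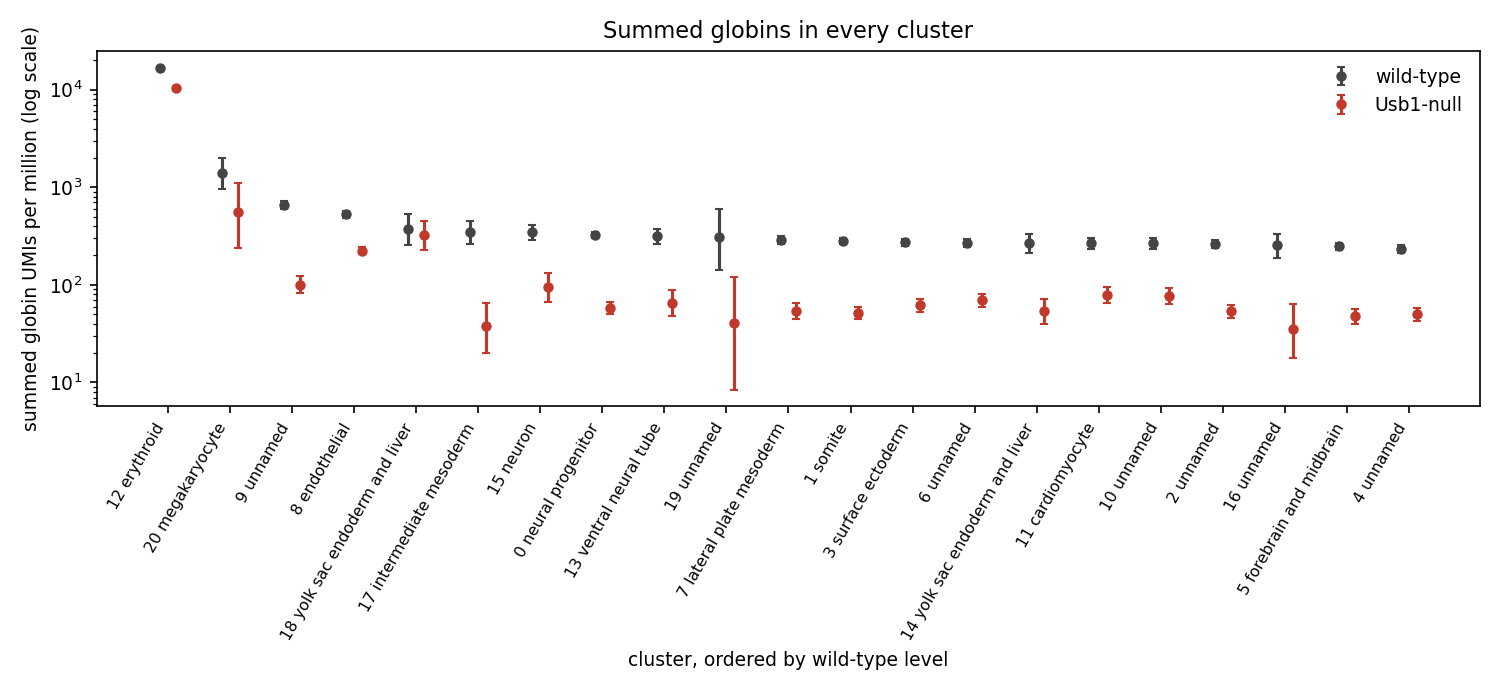
Summed globin level in CPM (vertical axis, log scale) in each of the 21 clusters, ordered by the wild-type level, with 95% counting intervals. The erythroid-like cluster stands at 16798 and 10358, and each Usb1-null point lies below its wild-type point. Endothelial-like cells, at 527 and 225, stand above most other clusters.

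Endothelial-like cells, the lining of the vessels through which primitive red cells pass, held more globin than the remaining non-erythroid cells in both libraries. Their level was 527 CPM in wild-type against 291 in the remaining cells, a ratio of 1.81 (1.67 to 1.95), and 225 against 60.6 in Usb1-null, a ratio of 3.71 (3.36 to 4.09). Part of this lay in few cells: 15 wild-type endothelial-like cells with at least 8 globin UMIs held 239 of 768 globin UMIs, and 10 Usb1-null cells held 222 of 526. These cells carried 2.13 and 3.60 UMIs per cell of the strict erythroid markers, compared with 0.0588 and 0.0879 in the remaining endothelial-like cells, and 9 of 15 and 1 of 10 were called doublets. Without such cells the ratio was 1.39 (1.27 to 1.52) in wild-type and 2.24 (1.98 to 2.53) in Usb1-null. The Hbb-y share of embryonic beta UMIs in endothelial-like cells was 86.9% (83.7 to 89.7) and 65.8% (60.2 to 71.1). The part that called doublets and cells with erythroid markers had in the endothelial-like level beyond these values was not tested.

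One cluster stood apart in its mix of globins. Of 2 clusters named yolk sac endoderm and liver-like, the smaller (56 wild-type and 62 Usb1-null cells) was led by Alb, Apoa2 and Mup3, genes of hepatocytes. Its Usb1-null cells held 35 globin UMIs, of which 26 (74.3%, 56.7 to 87.5) were adult-type: 7 of Hba-a1, 7 of Hba-a2, 10 of Hbb-bs and 2 of Hbb-bt, with 5 of Hba-x, 4 of Hbb-y and 0 of Hbb-bh1. Its wild-type cells held 30 globin UMIs, of which 4 were adult-type (13.3%, 3.76 to 30.7) and 19 were of Hbb-y. In the other Usb1-null clusters with at least 20 globin UMIs the adult-type share ran from 4.44 to 20.6%, and in wild-type from 9.49 to 15.5%. The source of these adult-type UMIs was not tested, and leaving the cluster out changed the summed log2 ratio outside the erythroid-like cells from -2.08 to -2.09.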

How the data were processed

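Whole embryos were dissociated, captured with 10x Genomics 3′ chemistry and sequenced. The deposited files hold UMI counts per gene and cell, made by the authors with Cell Ranger 6.1.2 per the file headers (2.1.1 per the labels) on mm10 and not normalized. Cells with 200 to 6000 genes and under 30% mitochondrial UMIs were kept, as in the study. They were clustered (scanpy 1.11.5) on 2000 variable genes without globin, sex-linked marker, mitochondrial and ribosomal protein genes, 30 components, Harmony as rewritten here and Leiden at resolution 0.4, the value nearest 19 clusters. A cluster was named for the list with the most markers raised at least 2-fold, if these were at least 3 and more than for any other list, and if that list had at least 1 gene, and no fewer than any other list, among the 10 leading genes. Levels are CPM, UMIs per 1000000 UMIs of the cells summed. Intervals are exact Poisson (levels), Clopper-Pearson (shares) and conditional binomial (ratios), at 95%. The code for calls and intervals was tested on simulated counts. The pathway lists were counted whole, with up to 6 genes named, those with the most UMIs in erythroid-like cells. The members and lists were chosen with earlier results of these data known. Doublets were called with Scrublet and kept, except in alternatives. Some genes of the lists are counted but their values are not reported here.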

Additional observations from a re-analysis of the deposited data

How the results depend on the processing

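No paired analysis was possible because each genotype had 1 library, and for the same reason no replicate could be left out. The summed log2 ratio of the whole library was -1.97 without doublets, -1.67 for cells with at least 1000 genes, -1.98 with thinned cells and -1.06 with wild-type cluster shares, and 3 other alternatives kept it within its interval. In the erythroid-like cells (-0.70) it was -0.85 without doublets, -0.39 with at least 1000 genes, -0.84 thinned, -0.75 with globins kept in the clustering and -1.08 when cells were chosen by at least 2 strict erythroid markers. In alternatives chosen after seeing the data it was -1.04 without the richest cells, -0.79 without cells over 5% globin and, reversed, 0.13 as UMIs per cell. The value as UMIs per cell was -0.22 without the richest cells. Without cells over 5% globin the UMIs per cell stayed slightly higher in Usb1-null, with 8695 over 572 wild-type and 2828 over 180 Usb1-null cells. The difference in the share of erythroid-like cells (-2.48 points) was -1.95 without doublets, -0.650 with at least 1000 genes, -1.60 thinned and -1.74 by strict markers. The alpha-type share (3.44 points) was 6.70 and 5.47 points without the richest cells or those over 5% globin, and 2.36 without doublets and 2.96 thinned. The adult share of alpha-type UMIs (-6.57 points) was -11.4 with at least 1000 genes and -3.10 as a mean over cells. The Hbb-y share (-10.7 points) was -12.8 thinned, -14.5 as a mean over cells, and -15.6 and -15.4 without the richest cells or those over 5% globin. The adult beta share (0.785 points) was -0.0818 thinned, 0.108 as a mean over cells, and 0.113 and 0.0658 without those cells, so its direction was not stable. Members called lower in erythroid-like cells went from 1 to 4 without the richest cells (5.82% of genes), 2 without those over 5% globin (5.84%) and 2 without doublets (4.52%). Another seed, no library correction and resolution 0.8, run for the erythroid-like ratio, the share of erythroid-like cells and the 4 composition shares, moved none of these 6 beyond its interval. Depth limits the adult beta genes, with 63 and 38 UMIs in the erythroid-like cells.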
